A study of Ovis aries with 18 samples.

Results

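The genes described here carry amino acids, methionine among them, and glucose across the plasma membrane. They were taken by name from the gene count table of 12 pools of sheep blastocysts. The list held 9 genes, SLC7A5, SLC3A2, SLC7A6, SLC7A8, SLC38A2, SLC43A2, SLC1A5, SLC2A1 and SLC2A3, and 8 of them had a row among the 20092 genes of the table. All 8 were among the 16488 genes that passed the filter on low counts, and SLC2A3 was not analysed here. The rule names the genes and uses none of their measured values, but the list was chosen with earlier results of these data known.

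Each pool held 5 embryos collected 8 days after the rams had been introduced to superovulated Polypay ewes, so that inner cell mass and trophectoderm were sequenced together. The sires were Polypay rams, 3 per diet. Control rams ate a basal diet alone, and treated rams ate the same diet top-dressed with 1.5 g (0.22%) of rumen-protected methionine, which began when the rams were on average 88 days old and lasted 77 days. Rumen-protected methionine is coated so that it passes the rumen and is absorbed in the intestine. Control rams Ram410, Ram423 and Ram444 sired 2 pools each. Of the methionine-treated rams, Ram424 sired 4 pools, while rams Ram498 and Ram511 sired 1 pool each, and a pool is named here by its ram and its number. Pools of a ram share a sire, so the diets differ in 3 rams against 3.

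Amino acids with large neutral side chains, methionine among them, enter many cells through L-type exchangers. Their light chain, such as LAT1 (SLC7A5) or LAT2 (SLC7A8), is bound by a disulfide bridge to the heavy chain 4F2hc (SLC3A2), which brings it to the cell surface. An exchanger takes up an amino acid as another leaves, and the outgoing substrates are accumulated by sodium-coupled carriers such as SNAT2 (SLC38A2) and ASCT2 (SLC1A5). Glucose enters down its gradient through facilitative carriers of the SLC2 family, of which GLUT1 (SLC2A1) and GLUT3 (SLC2A3) are well known in mammalian blastocysts. In these embryos the trophectoderm is an epithelium that lies between the uterine fluid and the inner cell mass.

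The totals ran from 1017847 to 2398589 counts per pool. Levels are given as CPM, the counts of a gene relative to the total of its pool. Totals were scaled by the trimmed mean of M values (TMM). The counts are a small part of the reads per pool that the paper reports, and the reason was not tested. Of the 20092 genes of the table, 18934 to 19575 had counts in a given pool. Whether low levels reflect expression in the embryos was not tested. Control pool Embryo444_2 and methionine pool Embryo511_1 stood apart from the other libraries. Spearman coefficients among the other 10 pools were between 0.806 and 0.955, whereas the median coefficient with the other pools was 0.582 for pool Embryo444_2 and 0.600 for pool Embryo511_1, and these pools had 0.570 with each other. All 6 trophectoderm markers analysed, of 8 listed, were lower in both of them than in any of the other 10. Summed, they had 5124 to 11733 CPM in the remaining 5 control pools and 7084 to 14328 CPM in the remaining 5 methionine pools, against 195 CPM in pool Embryo444_2 and 128 CPM in pool Embryo511_1. KRT8, a keratin of simple epithelia, led this sum, with 116 CPM in pool Embryo444_2 and 42.6 CPM in pool Embryo511_1. The inner cell mass pair POU5F1 and NANOG summed to 143 to 535 CPM in the 10 pools, 24.1 CPM in pool Embryo444_2 and 47.6 CPM in pool Embryo511_1, where POU5F1 was below the other pools and NANOG, at 9.91 and 7.93 CPM, was within their range. Hypoblast markers summed to 417 to 952, 233 and 276 CPM in the same order. Of these 4, only GATA6 was below the other pools in both, while GATA4 had 94.2 CPM in Embryo511_1 against at most 44.3 CPM in the similar pools and PDGFRA had 166 CPM in Embryo444_2 against at most 155 CPM. Oocyte markers summed to 58.8 to 113, 80.7 and 661 CPM, blood and immune markers to 58.9 to 96.9, 127 and 256 CPM, and endometrial markers to 58.7 to 88.5, 110.4 and 83.3 CPM. Of the 2 blood and immune markers, PTPRC was above and CD68 below all other pools in both. The oocyte marker ZAR1 and the hypoblast marker SOX17 had 0 counts in pool Embryo511_1, where ZP3, which encodes a zona pellucida protein, had 410.4 CPM. The part of these markers in the results was not tested, and in pooled embryos fewer cells of a type and less RNA per cell cannot be told apart. The diet comparisons of the 8 genes are therefore given with and without these pools.

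**Figure D1:**
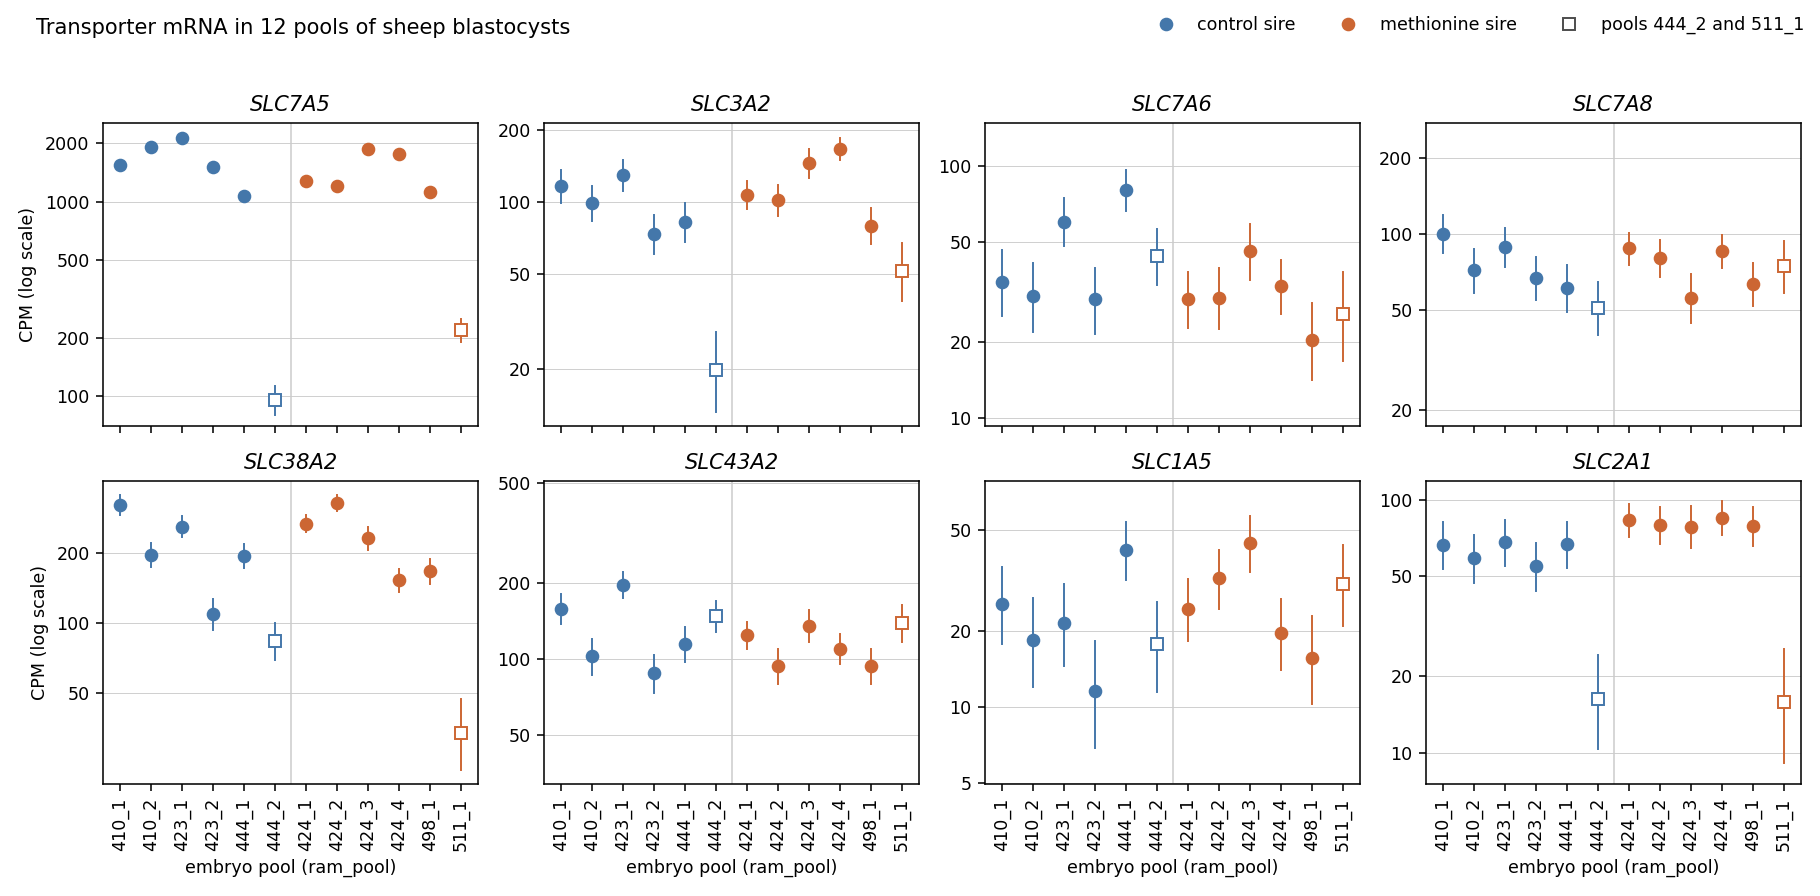
Level of each transporter gene in the 12 embryo pools, in TMM-scaled CPM on a log axis whose range differs between panels. Blue marks control sires and orange methionine sires, open squares are pools Embryo444_2 and Embryo511_1, and bars are exact 95% Poisson intervals of the counts. The open squares lie below all filled circles for SLC7A5, SLC3A2, SLC38A2 and SLC2A1, and among the filled circles the diets separate for SLC2A1 and for no other panel.

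SLC7A5 encodes LAT1, a light chain with high affinity for leucine, methionine and aromatic amino acids. In the control pools its level was 1543 CPM in Embryo410_1, 1909 in Embryo410_2, 2136 in Embryo423_1, 1515 in Embryo423_2, 1076 in Embryo444_1 and 95.6 in Embryo444_2. In the methionine pools it was 1287 CPM in Embryo424_1, 1214 in Embryo424_2, 1873 in Embryo424_3, 1760.3 in Embryo424_4, 1126 in Embryo498_1 and 218 in Embryo511_1. The 10 similar pools kept within a 1.98-fold range, the diets overlapped, and pools Embryo444_2 and Embryo511_1 lay far below all of them. Relative to the median of the 10 pools, 1529 CPM, the level was 16.0-fold lower in pool Embryo444_2 and 7.01-fold lower in pool Embryo511_1. These rested on 135 and 220 counts, so counting error was small beside the gap. The other pool of Ram444 carried 1517 counts and was among the 10. The log2 fold change of methionine over control was -0.15 (SE 0.66, 95% interval -1.55 to 1.26), with a Benjamini-Hochberg adjusted p of 0.970 in edgeR's quasi-likelihood test. Without the pools that stood apart it was -0.18 (SE 0.27, 95% interval -0.74 to 0.38, adjusted p = 0.831 in the same edgeR test). The interval thus narrowed while the direction did not change, although the sign turned when pool Embryo423_1, pool Embryo511_1, Ram410 or Ram423 was left out.

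SLC3A2 encodes the shared heavy chain 4F2hc. Control pools had 117 CPM in Embryo410_1, 99.2 in Embryo410_2, 130.0 in Embryo423_1, 73.1 in Embryo423_2, 82.3 in Embryo444_1 and 19.8 in Embryo444_2. Methionine pools had 108 CPM in Embryo424_1, 102 in Embryo424_2, 145 in Embryo424_3, 168 in Embryo424_4, 79.5 in Embryo498_1 and 51.6 in Embryo511_1. As for its light chain, the lowest pool of each diet was the one that stood apart, 5.28-fold below the median of the other 10 in pool Embryo444_2 and 2.03-fold below it in pool Embryo511_1. The highest level was in a pool of Ram424, and the ranges of the diets overlapped. Methionine pools were at a log2 fold change of 0.33 over control (SE 0.37, 95% interval -0.45 to 1.11, edgeR quasi-likelihood adjusted p = 0.834) in 12 pools. In the 10 similar pools it was 0.26 (SE 0.24, 95% interval -0.25 to 0.77, edgeR adjusted p = 0.693). Leaving out Ram424 turned the sign, to -0.40.

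The light and heavy chain of LAT1 did not keep the same proportion in every pool. Counts of SLC7A5 per count of SLC3A2 were 13.2 in Embryo410_1, 19.2 in Embryo410_2, 16.4 in Embryo423_1, 20.7 in Embryo423_2 and 13.1 in Embryo444_1 among the control pools. Among the methionine pools they were 12.0 in Embryo424_1, 11.9 in Embryo424_2, 12.9 in Embryo424_3, 10.5 in Embryo424_4 and 14.2 in Embryo498_1. The mean was 16.5 ± 3.45 (SD, n = 5) for control and 12.3 ± 1.35 (SD, n = 5) for methionine pools, and the ranges overlapped. Of these methionine pools 4 came from Ram424, and Embryo498_1, from the other ram, was above control pools Embryo410_1 and Embryo444_1. The difference between the means was noticed in the data and was not tested. In the pools that stood apart the ratio was lower than in any other pool, 4.82 in Embryo444_2 and 4.23 in Embryo511_1, since SLC7A5 was further below its usual level than SLC3A2. A ratio of counts carries the lengths of both transcripts, so only its differences between pools can be read. Over the 10 similar pools the Spearman coefficient of the levels of the 2 genes was 0.59, as a description.

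SLC7A6 and SLC7A8, the other light chains of 4F2hc among the 8 genes, were not below all similar pools in both pools that stood apart. SLC7A7, a light chain outside the list, was, as given below. SLC7A6 encodes y+LAT2, which exchanges cationic amino acids against neutral ones with sodium. Its level was 34.6 CPM in Embryo410_1, 30.5 in Embryo410_2, 60.0 in Embryo423_1, 29.5 in Embryo423_2, 80.2 in Embryo444_1 and 43.9 in Embryo444_2 among the control pools. In methionine pools it was 29.6 CPM in Embryo424_1, 30.0 in Embryo424_2, 45.9 in Embryo424_3, 33.4 in Embryo424_4, 20.5 in Embryo498_1 and 25.8 in Embryo511_1. Pools Embryo444_2 and Embryo511_1 were inside the range of the others, and the highest values were those of control pools Embryo444_1 and Embryo423_1. SLC7A6 had the smallest unadjusted p of the 8 genes. Its log2 fold change was -0.59 (SE 0.30, 95% interval -1.22 to 0.05, unadjusted p = 0.0674, Benjamini-Hochberg adjusted p = 0.661 in edgeR's quasi-likelihood test). The exact two-sided permutation test gave p = 0.0952 over all assignments of the 12 pools and p = 0.2 over the 20 assignments of 6 ram means. Without the pools that stood apart the value was -0.57 (SE 0.32, 95% interval -1.23 to 0.10, edgeR adjusted p = 0.494). Its call at an unadjusted p of 0.05 turned on single libraries, for the edgeR p was 0.0432 without pool Embryo410_2, 0.0395 without Embryo423_2, 0.0325 without Embryo424_3 and 0.0301 without Ram410, with adjusted p between 0.643 and 0.683. With library size alone as the scaling it was 0.0356, with an adjusted p of 0.580 in edgeR's test. The exact permutation p over pools was 0.0476 without Embryo424_3, and 0.0476 again with all 12 pools scaled by library size alone. With 26 to 113 counts per pool, SLC7A6 also had the widest range of the 8 genes among the similar pools, 3.92-fold.

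SLC7A8 encodes LAT2, which accepts a broader set of neutral amino acids than LAT1. Control pools had 100.1 CPM in Embryo410_1, 71.5 in Embryo410_2, 88.6 in Embryo423_1, 66.7 in Embryo423_2, 61.0 in Embryo444_1 and 51.0 in Embryo444_2. Methionine pools had 87.5 CPM in Embryo424_1, 79.8 in Embryo424_2, 55.8 in Embryo424_3, 85.0 in Embryo424_4, 63.2 in Embryo498_1 and 74.4 in Embryo511_1. The diets overlapped almost throughout, and pool Embryo511_1 lay in the middle of its diet. Pool Embryo444_2 was the lowest of the 12, 1.48-fold below the median of the 10. The log2 fold change was 0.02 (SE 0.22, 95% interval -0.45 to 0.50, edgeR quasi-likelihood adjusted p = 0.986), and without the pools that stood apart it was -0.07 (SE 0.21, 95% interval -0.52 to 0.38, edgeR adjusted p = 0.927).

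SLC43A2 encodes LAT4, a carrier that lets branched-chain amino acids, methionine and phenylalanine leave or enter along their gradient and that needs no heavy chain. It was measured at 158 CPM in Embryo410_1, 103 in Embryo410_2, 197 in Embryo423_1, 87.9 in Embryo423_2, 115 in Embryo444_1 and 148 in Embryo444_2 in control pools. The methionine pools had 125 CPM in Embryo424_1, 94.0 in Embryo424_2, 136 in Embryo424_3, 110.1 in Embryo424_4, 93.9 in Embryo498_1 and 139 in Embryo511_1. Control pools spanned the whole range, with methionine pools inside it, and pools Embryo444_2 and Embryo511_1 were above the median of the others. Between diets the log2 fold change was -0.21 (SE 0.25, 95% interval -0.74 to 0.31, edgeR quasi-likelihood adjusted p = 0.838) in 12 pools. In the 10 similar pools it was -0.25 (SE 0.24, 95% interval -0.75 to 0.25, edgeR adjusted p = 0.701). SLC43A2 and SLC7A6 were the most alike pair among the 8 genes, with a Spearman coefficient of 0.75 over the 10 similar pools.

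Of the sodium-coupled carriers, SLC38A2 encodes SNAT2, whose transcription is known to be induced when amino acids are scarce. Its levels in control pools were 321 CPM in Embryo410_1, 196 in Embryo410_2, 259 in Embryo423_1, 109 in Embryo423_2, 194 in Embryo444_1 and 83.5 in Embryo444_2. In methionine pools they were 267 CPM in Embryo424_1, 327 in Embryo424_2, 230.1 in Embryo424_3, 152 in Embryo424_4, 166 in Embryo498_1 and 33.7 in Embryo511_1. Pools of a single ram spanned much of the range, from 152 to 327 CPM in Ram424 and from 109 to 259 CPM in Ram423. Pool Embryo511_1 was 6.32-fold and pool Embryo444_2 2.55-fold below the median of the 10 similar pools, 213 CPM, on 34 and 118 counts. The SD of log2(CPM + 1) between pools of a ram was 0.58 and over all 10 pools 0.50, so that the spread within rams was no smaller than that over all of these pools. For the diets the log2 fold change was 0.02 (SE 0.44, 95% interval -0.91 to 0.95, edgeR quasi-likelihood adjusted p = 0.995), and without the pools that stood apart it was 0.07 (SE 0.28, 95% interval -0.52 to 0.67, edgeR adjusted p = 0.943). Summing the pools of each ram turned the sign, to -0.34.

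SLC1A5 encodes ASCT2, an exchanger of glutamine and small neutral amino acids. Its counts were few, 18 to 63 per pool. The mean level over 6 pools was 22.8 CPM for control and 27.9 CPM for methionine. The endometrial marker HOXA10 was near this, at 23.8 and 29.4 CPM. Whether counts at such levels reflect expression in the embryos was not tested. Control pools had 25.6 CPM in Embryo410_1, 18.4 in Embryo410_2, 21.4 in Embryo423_1, 11.5 in Embryo423_2, 41.9 in Embryo444_1 and 17.7 in Embryo444_2. Methionine pools had 24.4 CPM in Embryo424_1, 32.3 in Embryo424_2, 44.5 in Embryo424_3, 19.7 in Embryo424_4, 15.7 in Embryo498_1 and 30.7 in Embryo511_1. The diets overlapped, the pools that stood apart were within the range of the others, and the similar pools covered a 3.85-fold range. Its log2 fold change was 0.29 (SE 0.34, 95% interval -0.44 to 1.01, edgeR quasi-likelihood adjusted p = 0.844) in 12 pools and 0.19 (SE 0.36, 95% interval -0.57 to 0.95, edgeR adjusted p = 0.872) without the pools that stood apart.

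SLC2A1, the gene of the glucose carrier GLUT1, had the narrowest range of the 8 among the similar pools, 1.56-fold, and was the only one in which their diets did not overlap. Control pools had 66.2 CPM in Embryo410_1, 58.8 in Embryo410_2, 67.9 in Embryo423_1, 54.5 in Embryo423_2, 66.7 in Embryo444_1 and 16.3 in Embryo444_2. Methionine pools had 83.2 CPM in Embryo424_1, 79.3 in Embryo424_2, 78.3 in Embryo424_3, 85.0 in Embryo424_4, 78.9 in Embryo498_1 and 15.9 in Embryo511_1. All 5 similar methionine pools were above all 5 similar control pools, while pools Embryo444_2 and Embryo511_1 were close to each other and far below the rest. Their levels were 4.49-fold and 4.61-fold below the median of the 10, from 23 and 16 counts, and their exact 95% Poisson intervals were 10.3 to 24.4 CPM and 9.07 to 25.8 CPM. The SD of log2(CPM + 1) between pools of a ram was 0.12 in the similar pools, and 0.22 over all of them.

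Over all 12 pools SLC2A1 did not differ between the diets beyond the spread of the pools. The log2 fold change was 0.35 (SE 0.37, 95% interval -0.43 to 1.14, unadjusted p = 0.352, adjusted p = 0.823 in edgeR's quasi-likelihood test). The exact two-sided permutation p was 0.459 over pools and 1 over ram means. Over the 10 similar pools the mean was 62.8 ± 5.85 CPM (SD, n = 5) for control and 80.9 ± 2.98 CPM (SD, n = 5) for methionine. The log2 fold change was nearly the same, 0.36, with a smaller error (SE 0.18, 95% interval -0.02 to 0.74, unadjusted p = 0.0625, adjusted p = 0.441 in edgeR's quasi-likelihood test over all genes). The exact permutation p over these pools was 0.00794, the smallest that 252 assignments can give, and it is 1 of 8 such tests. It restates that the diets did not overlap, which held for 1.76% of all genes in these pools, chosen after the data were seen. Over the ram means the permutation p was 0.1, again the smallest that 3 rams against 2 can give in an exact permutation test. The result over pools depended on which of the 2 low pools was left out. Without Embryo511_1 alone, the low control pool Embryo444_2 being kept, the log2 fold change was 0.56. In edgeR's quasi-likelihood test the unadjusted p was 0.0661 and the adjusted p 0.441. The exact permutation p over these 11 pools was 0.00866. Without Embryo444_2 alone, the low methionine pool Embryo511_1 being kept, it was 0.17 (unadjusted p = 0.614 in edgeR's quasi-likelihood test). Of the 5 methionine pools, 4 came from Ram424, and pools Embryo424_1 and Embryo424_2 were the most alike of all pairs of libraries. The diets were also separate when CPM were computed from the library size alone, at 55.2 to 67.1 CPM for control and 69.5 to 84.0 CPM for methionine. Single pools were less well resolved, for the 95% Poisson interval was 64.5 to 94.3 CPM in Embryo424_3 and 54.9 to 83.0 CPM in Embryo423_1. With Ram424 left out of the 12 pools, the log2 fold change was -0.20. The methionine pools were then Embryo498_1, at 78.9 CPM and above every control pool, and Embryo511_1, at 15.9 CPM.

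**Figure D2:**
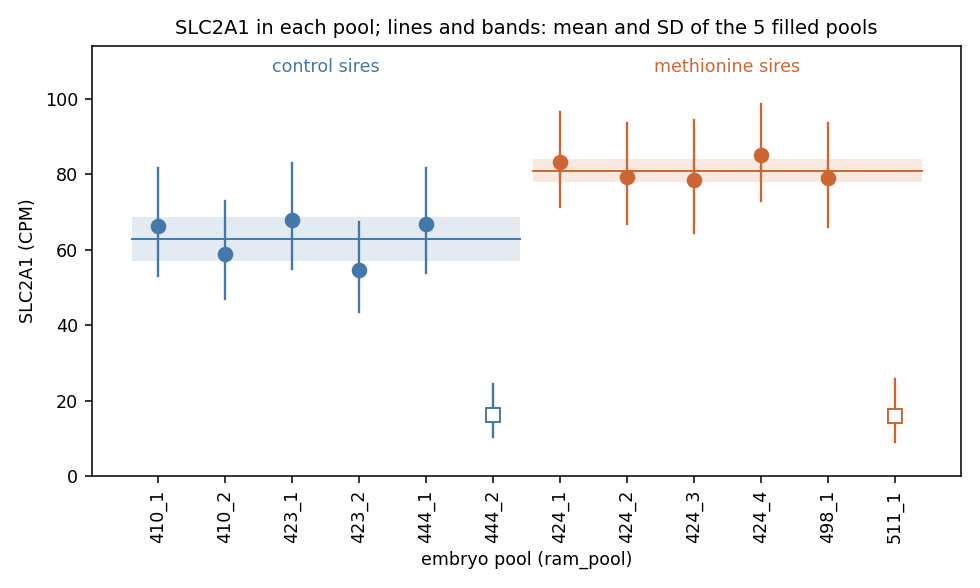
SLC2A1 in TMM-scaled CPM, by embryo pool, with exact 95% Poisson intervals. Lines and bands are the mean and SD of the 5 filled pools of each diet, 62.8 ± 5.85 CPM for control and 80.9 ± 2.98 CPM for methionine sires. The open squares, pools Embryo444_2 and Embryo511_1, are near 16 CPM and are outside both bands.

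As a list, the 8 genes were split between the directions. In 12 pools 5 were higher and 3 lower with methionine, with a median log2 fold change of 0.02, beside 0.01 for all genes tested. Scaling by library size alone made this 3 higher and 5 lower, with a median of -0.07 beside -0.09 for all genes. None passed a false discovery rate of 0.05 in edgeR's quasi-likelihood test, where 0% of the 16488 genes did. At an unadjusted p under 0.05 there were 0 of 8 members and 7.92% of all genes (1306). By edgeR's likelihood-ratio test 5 genes passed and by DESeq2 16, and 0 of the 8 members were among them in either. No member had separate diets in 12 pools, and 0.352% of all genes did. In the 10 similar pools 4 members were higher and 4 lower, with a median of 0.00 beside -0.03 for all genes. Again 0 passed the false discovery rate, which 0.00607% of genes passed (1 gene), and 0 had an unadjusted p under 0.05, which 11.9% of genes had. Diets were separate in 1 member, SLC2A1, and in 1.76% of genes. The 95% intervals in 12 pools reached from -1.55 to 1.26 for SLC7A5, the widest, and from -0.45 to 0.50 for SLC7A8, the narrowest, so that small differences between the diets were not detectable with these pools.

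**Figure D3:**
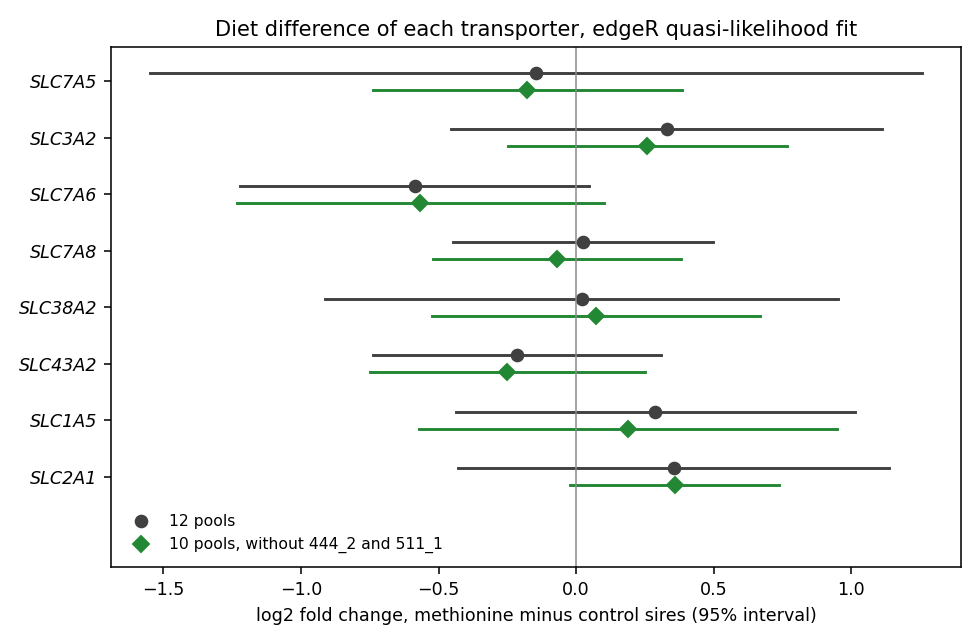
Log2 fold change of methionine over control sires for each transporter gene (horizontal axis), with 95% intervals from edgeR's quasi-likelihood fit, in 12 pools (grey circles) and in the 10 pools without Embryo444_2 and Embryo511_1 (green diamonds). All intervals contain 0. The interval of SLC7A5, the widest in the 12 pools, reaches from -0.74 to 0.38 in the 10 pools.

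A larger contrast among these genes was that between libraries. SLC7A5, SLC3A2, SLC38A2 and SLC2A1, 4 of the 8, were lower in both pools that stood apart than in any of the other 10, as were 12.9% of all genes tested (2129), while 1343 genes were above the other 10 in both. SLC7A6, SLC7A8, SLC43A2 and SLC1A5 were not. The pools are 1 of each diet, so this contrast does not follow the diet. Summed over the 8 genes, the level was 1717 to 2960.0 CPM in the similar control pools, 1644 to 2609 CPM in the similar methionine pools, 476 CPM in pool Embryo444_2 and 589 CPM in pool Embryo511_1. SLC7A5 made up 62.0% to 77.8% of the counts of the 8 genes in the similar pools, 20.1% in pool Embryo444_2 and 37.0% in pool Embryo511_1. The lower sum in these pools therefore largely restates the lower level of SLC7A5. A share of counts carries the lengths of the transcripts, so only its differences between pools can be read.

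Of the 28 pairs of members 24 (85.7%) had a Spearman coefficient above 0 in the similar pools, from -0.19 to 0.75 with a median of 0.36. Over all pairs of tested genes 49.9% were above 0, with a median of -0.01. This is a description over 10 libraries that share sires. Genes whose levels ranked most like a member over all 12 pools were NDUFB7 for SLC7A5 (Spearman coefficient 0.98), UBLCP1 for SLC2A1 (0.97), WAPL for SLC38A2 (0.96), HNRNPL for SLC3A2 (0.94), PTPN23 for SLC1A5 (0.94) and INAVA for SLC7A8 (0.90). Each is the highest of all genes tested and is a description over libraries of which 2 stood apart.

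Other amino acid transporters had values on both sides of 0. Of 43 listed genes of the SLC1, SLC3, SLC6, SLC7, SLC16, SLC36, SLC38 and SLC43 families 39 were tested, of which 18 were higher and 21 lower with methionine, with a median log2 fold change of -0.09. Scaled by library size alone, 14 were higher and 25 lower. None passed the false discovery rate. At an unadjusted p under 0.05 there were 1 higher and 2 lower, 3 of 39 beside the 7.92% of all genes, and scaled by library size alone 1 higher and 5 lower. The higher gene was SLC1A3, a glutamate and aspartate carrier, at 108 ± 35.7 CPM in control and 199 ± 79.5 CPM in methionine pools (SD, n = 6), with a log2 fold change of 0.88 (SE 0.31, edgeR quasi-likelihood adjusted p = 0.585) and 0.84 in the 10 similar pools. It rested on the pools of Ram424, without which it was 0.24 (edgeR adjusted p = 0.884). The next was SLC38A10, at 0.57 (SE 0.27, edgeR adjusted p = 0.638), 0.60 in the similar pools, 0.36 without Embryo424_2 and 0.05 without Ram424. Lower were SLC1A4, the exchanger ASCT1 of alanine, serine and cysteine, and SLC7A1, the cationic amino acid carrier CAT1. SLC1A4 was at 67.0 ± 24.7 CPM in control and 38.5 ± 6.84 CPM in methionine pools (SD, n = 6), a log2 fold change of -0.80 (SE 0.27, edgeR adjusted p = 0.584), and SLC7A1 at 172 ± 47.7 and 109 ± 24.6 CPM, -0.66 (SE 0.27, edgeR adjusted p = 0.596). In the similar pools SLC1A4 was at -0.96 and SLC7A1 at -0.85, both with an edgeR adjusted p of 0.240. None of these 3 had an unadjusted p under 0.05 in edgeR when the pools of a ram were summed, at 0.139 for SLC1A3, 0.0566 for SLC1A4 and 0.127 for SLC7A1. With the ram as a random effect in limma the unadjusted p was 0.0704 for SLC1A3, 0.0412 for SLC1A4 and 0.0930 for SLC7A1. The unadjusted p of SLC1A4 was over 0.05 also without Ram410 or Ram424, and that of SLC7A1 without Embryo410_2, Embryo424_1, Embryo424_2, Embryo444_1, Ram410, Ram423 or Ram424.

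Without the pools that stood apart 15 of these transporters were higher and 24 lower, and 2 higher and 4 lower had an unadjusted p under 0.05, 6 of 39 beside 11.9% of all genes. Among them 6 of 39 were below all other pools in both Embryo444_2 and Embryo511_1, beside 12.9% of all genes, and 1 was above. SLC7A7, which encodes y+LAT1, another light chain of SLC3A2, was 1 of the 6 and was chosen for mention after its values were seen. It had 189 to 607 CPM in the similar pools, 49.6 CPM in pool Embryo444_2 and 28.8 CPM in pool Embryo511_1.

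**Figure D4:**
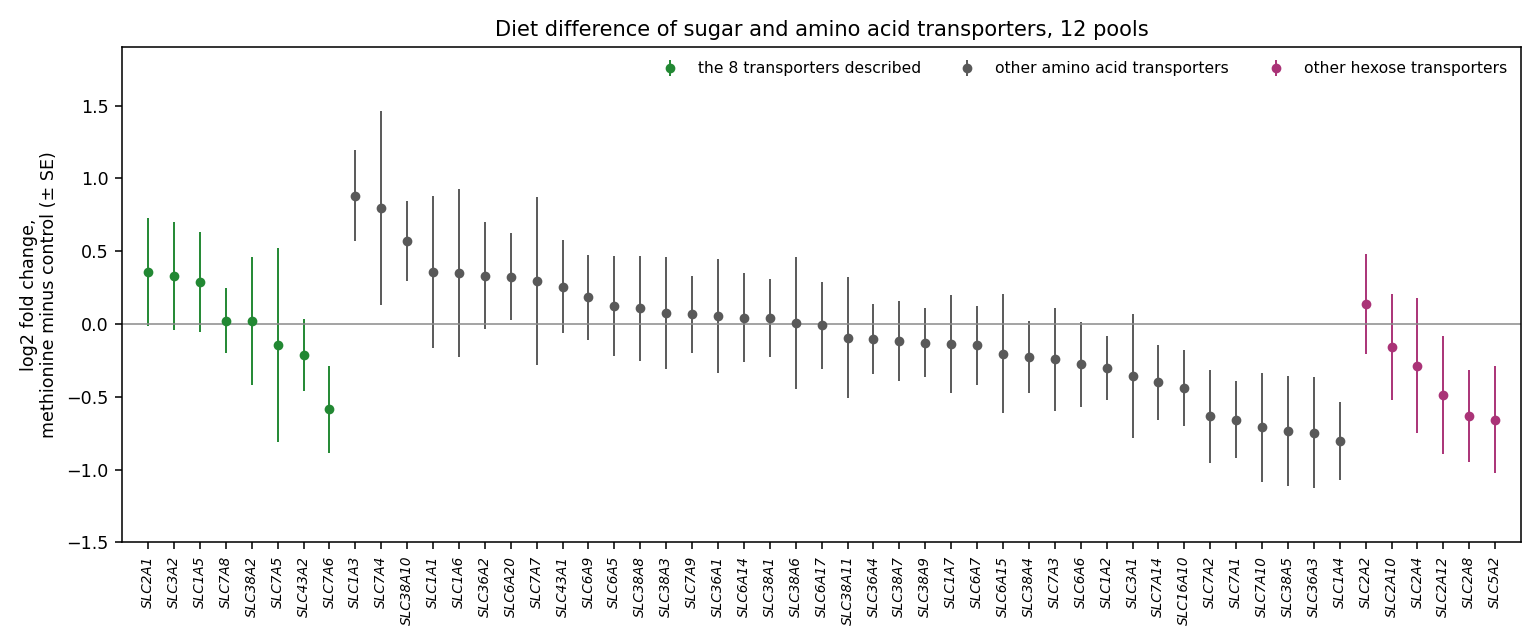
Log2 fold change of methionine over control sires in 12 pools, with its standard error as bars, for the 8 transporter genes described, 39 other amino acid transporters and 6 other hexose transporters, each ordered by value. No gene passed a false discovery rate of 0.05, and the 8 genes lie between -0.59 and 0.35.

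Other hexose transporters were fewer, and the limit on low levels stated for SLC1A5 holds for those at similar or lower levels. Of 9 listed 6 were tested, and 1 was higher and 5 lower with methionine. None had an unadjusted p under 0.05 in 12 pools, beside 7.92% of all genes. Scaled by library size alone 1 did, SLC2A8, beside 1333 of the 16488 genes. SLC2A8, which encodes GLUT8, was at 42.3 ± 21.2 CPM in control and 27.2 ± 5.85 CPM in methionine pools (SD, n = 6), with a log2 fold change of -0.63 (SE 0.31, edgeR quasi-likelihood adjusted p = 0.653). It was at -0.67 in the 10 similar pools, and at -0.35 (edgeR adjusted p = 0.729) when Embryo423_1, its highest pool with 80.7 CPM, was left out of the 12. SLC5A2, a sodium-coupled glucose carrier best known from the kidney, was at -0.66 (SE 0.37, edgeR adjusted p = 0.670), and SLC2A2, the gene of GLUT2, at 0.14 (SE 0.34, edgeR adjusted p = 0.935). In the similar pools they were at -0.55 and -0.13. There all 6 were lower with methionine, under each of the 3 scalings. Under these scalings the median log2 fold change of all genes was between -0.08 and -0.02. Of the 6, 1, SLC2A8, had an unadjusted p under 0.05 in edgeR's test, beside 11.9% of all genes. SLC2A1 was on the other side of 0 from these 6. TXNIP and ARRDC4, arrestins that promote the removal of GLUT1 from the cell surface, were at -0.11 (SE 0.41) and 0.35 (SE 0.31) in 12 pools, with edgeR adjusted p of 0.963 and 0.782, and at -0.27 and 0.50 in the similar pools.

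Genes of amino acid sensing and of the complex of the growth kinase mTOR, RPTOR and MLST8 among them, were also looked at. Leucine and methionine brought in by these carriers are among the signals sensed. Of 23 listed 19 were tested, as MTOR, RHEB, RRAGA and RRAGC had no row in the count table under these symbols. Of the 19, 10 were higher and 9 lower (8 and 11 when scaled by library size alone), and none passed the false discovery rate. At an unadjusted p under 0.05 there were 2 of 19 in 12 pools, LAMTOR2 and RRAGB, beside 7.92% of all genes, and 1 of 19, LAMTOR2, in the 10 similar pools, beside 11.9%. LAMTOR2, a subunit of the Ragulator complex on lysosomes, was at -1.94 (SE 0.73, edgeR adjusted p = 0.585) and at -2.08 in the similar pools. A single control pool, Embryo423_1, had 452 CPM of it against a median of 32.9 CPM in the similar pools, and without that pool the value was -0.61 (SE 0.52, edgeR adjusted p = 0.739). RRAGB, a Rag GTPase, was at -0.96 (SE 0.43, edgeR adjusted p = 0.615), -0.96 in the similar pools and -0.63 (edgeR adjusted p = 0.676) without Embryo423_1. Its unadjusted p was over 0.05 also without Embryo410_1, Embryo424_1, Embryo424_2, Embryo424_3 or Embryo511_1. On the other side were CASTOR1, an arginine sensor, at 0.73 (SE 0.40, edgeR adjusted p = 0.666), and SESN1, of the leucine-sensing sestrins, at 0.47 (SE 0.27, edgeR adjusted p = 0.674). In the similar pools CASTOR1 was at 0.67 and SESN1 at 0.29, and without Ram424 CASTOR1 was at -0.28. Mean levels in control and methionine pools were 19.2 and 9.83 CPM for RRAGB, and 13.8 and 23.0 CPM for CASTOR1. The limit on low levels stated for SLC1A5 holds for both genes.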

How the data were processed

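RNA sequencing of 12 pools of embryos was analysed, grouped by the sire's diet in the labels. The authors amplified whole transcriptomes, trimmed reads with Trimmomatic, aligned them with STAR to Oar_rambouillet_v1.0 and deposited raw counts per gene. The strand setting is not given in the sources used here, so reads of antisense partners cannot be told apart. Reads were amplified without molecular identifiers, and intervals from counts cover counting error only. Sperm methylation, transcript lengths and genomic positions were not analysed here, as no annotation of that build was used, so levels are not compared between genes.

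A gene entered the fit when more than 3 pools each held 15 or more of its counts, which left 16488 of 20092 genes. After TMM scaling, diet was the only term of a quasi-likelihood model in edgeR 4.0.16 (R 4.3.3), tested two-sided with Benjamini-Hochberg adjustment over all of them. Exact permutation tests used log2(CPM + 1) over pools and over ram means, where 3 rams against 3 cannot go below p = 0.1. Since pools from the same ram have a common sire they are not independent. The ewes that the authors report hardly outnumber the rams, and embryos were pooled by sire and dam. For most rams with several pools, these pools therefore share a dam as well, so sire and dam cannot be told apart. The dam was not modelled, as the dams were not analysed here. Nothing says whether pools were prepared separately, so p-values over pools measure the spread between these libraries. Within rams, limma 3.58.1 estimated a correlation of 0.263. Pools Embryo424_1 and Embryo424_2, the most alike, differed by more than sampling noise (chi-square per degree of freedom 3.31, other pairs of a ram 8.45 to 26.9) and were kept as 2 samples.

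The members and gene lists were chosen with earlier results of these data known. Named were all members, of each other list the 2 genes with the smallest p in each direction, and for each member the gene with the highest Spearman coefficient where over 0.9. The 2 genes of highest level per length, also part of that rule, were not named because lengths were not used. Alternatives were the likelihood-ratio test, DESeq2 1.42.0, RLE normalization, other filters, summed pools, the ram as a random effect, a pseudocount of 0.25, CPM without TMM, and each pool or ram left out. Added after the data were seen were the fit without pools Embryo444_2 and Embryo511_1, Embryo424_1 and Embryo424_2 summed as 1 library, and edgeR with library size alone. Figures used Python 3.11.15 and matplotlib 3.10.9.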

Additional observations from a re-analysis of the deposited data

Results flagged for a closer look

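For 4 of the 8 transporter genes the lowest pool of a diet was far from the other 5, measured as its gap to the nearest pool divided by the range of the group on the log2(CPM + 1) scale, and passed Dixon's 95% critical value for 6 samples. In control pools this was pool Embryo444_2, with a gap of 0.779 of the range for SLC7A5, 0.691 for SLC3A2 and 0.844 for SLC2A1. In methionine pools it was pool Embryo511_1, with 0.763 for SLC7A5, 0.662 for SLC38A2 and 0.950 for SLC2A1. Chance alone marks about 1 in 20 groups, and the genes share the same libraries, so these 6 marks are not independent. All fall on the pools whose trophectoderm markers summed to 195 and 128 CPM, and the part of those markers in the levels of the transporters was not tested.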

How the results depend on the processing

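No paired analysis was possible because each ram received 1 diet, so that pool numbers pair no samples across diets. The main count of genes past a false discovery rate of 0.05 was 0 by quasi-likelihood in edgeR (with 1306 genes at an unadjusted p under 0.05), against 5 in the likelihood-ratio test (1454), 16 in DESeq2 (1430) and 1 without pools Embryo444_2 and Embryo511_1 (1959), and it was 0 with any single pool or ram left out. None of the 8 transporters was among the genes called in any of the 28 settings. At an unadjusted p under 0.05 the count of transporters was 0, 1 with library size alone, and 0 to 1 with a pool or ram left out. By exact permutation over pools it was 0, 1 for CPM without TMM factors, 1 without pools Embryo444_2 and Embryo511_1, and 0 to 1 with a pool left out.

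SLC7A6, SLC43A2 and SLC1A5 kept their direction under all 29 alternatives. Leaving out a pool or ram moved the log2 fold change of SLC7A5 from -1.04 to 0.11, of SLC3A2 from -0.40 to 0.52, of SLC7A8 from -0.14 to 0.15, of SLC38A2 from -0.94 to 0.28 and of SLC2A1 from -0.20 to 0.56. Likewise SLC2A2 ran from -0.20 to 0.74, TXNIP from -0.33 to 0.40 and CASTOR1 from -0.28 to 0.95. Without pools Embryo444_2 and Embryo511_1 the sign turned for SLC7A8 (-0.069) and SLC2A2 (-0.13), with pools Embryo424_1 and Embryo424_2 summed for SLC7A8 (-0.013), SLC38A2 (-0.14) and TXNIP (0.031), with library size alone for SLC7A8 (-0.065 in edgeR, -0.063 from group means) and SLC38A2 (-0.081 and -0.079), and for SLC38A2 also with the pools of a ram summed (-0.34) and the ram as a random effect (-0.47). The cause was not tested. SLC1A3, SLC38A10, SLC1A4, SLC7A1, SLC2A8, SLC5A2, ARRDC4, LAMTOR2, RRAGB and SESN1 kept their direction in all 28 alternatives. They were named by the rank of their p in the same 12 pools, so a stable sign is no independent support. Leaving out a pool or ram brought SLC38A10 as low as 0.05 and LAMTOR2 as near 0 as -0.20. The median half-width of the 95% interval was 0.73 over all genes in 12 pools, which limits the differences that could be detected, and SLC1A5, SLC7A6 and SLC2A1 rest on 16 to 174 counts a pool. Sperm methylation at the promoters of these genes and levels per length were not run.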
